A study of Mus musculus with 44 samples.

Results

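RNA of E9.5 embryonic gut endoderm was compared with that of the E6.5 epiblast, the tissue it descends from. The comparison used 12 of the 44 libraries of the series: 4 of epiblast (Epi), 4 of embryonic midgut endoderm (emMidgut) and 4 of embryonic hindgut endoderm (emHindgut), chosen by their titles alone. The 8 gut libraries were pooled as emGut for the main test and then read by region. Levels are TPM (a transcript's share of its library, corrected for length), and differences are on the log2(TPM + 1) scale, given ± SE. A pair of TPM values in brackets after a gene, or after "rose from" or "fell from", gives the mean of Epi and then that of emGut unless it is called a range, and values given for a named group run from its lowest to its highest library.

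The epiblast is the pluripotent layer of the early embryo, and Pou5f1, Nanog and Sox2 hold its state. Cells that leave it through the primitive streak under Nodal, Wnt and FGF signals form mesoderm and definitive endoderm. The endoderm then folds into a tube, and Cdx and Hox factors give the tube its position from front to back. Forkhead, GATA and HNF factors mark the gut epithelium, which secretes Hedgehog ligands to the mesenchyme around it.

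All 12 libraries were wild type and came from diploid aggregation embryos: GFP+ mESCs of the G4 background (F1G4 in the study's methods) were placed beside an mCherry+ morula (CD1/G4), so that the embryo proper descends from the mESCs. The mCherry+ colony was kept by mating to C57BL/6J females. The blastocysts were carried by CD1 females, and the stages allow for a delay of 24 h from the transfer. Each Epi library holds the tissue of 1 embryo, bisected, treated with trypsin and pancreatin and drawn through a glass capillary. Each gut library holds cells of 4 pooled embryos, dissociated with trypsin, enriched with EPCAM beads and sorted as EPCAM+ GFP+ cells with low mCherry. The study's methods give the reason for this dual gate: GFP+ EPCAM+ cells alone also hold surface ectoderm and primordial germ cells. The study takes such dual cells to be embryonic cells that took up remnants of dying extraembryonic cells. Its methods say that some extraembryonic transcripts may remain in them. All gut libraries hold such cells, and the part of these remnants in the values was not tested. The mESCs are 1 male line, so the embryonic cells share 1 source. Stage, dissection, amount of input and sorting all change between Epi and emGut and cannot be told apart. A gene absent from a gut library is absent from a small sample of cells. The part of this small input in absent genes and in splits between gut replicates was not tested.

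The deposited coverage implies 7.51 to 9.77 Gb of aligned bases in the Epi libraries and 3.95 to 12.04 Gb in the gut libraries. Between 12540 and 12717 genes lay above 1 TPM in an Epi library and between 13270 and 13596 in a gut library (exact two-sided permutation test, p = 0.00404, the smallest that 4 against 8 libraries can give). The order turned round at 0.1 TPM, where Epi libraries held 17772 to 18285 genes and gut libraries 15389 to 16118 (exact permutation p = 0.00404). The part of the few cells sorted for a gut library in this turn was not tested. Correlations between replicates over tested genes were 0.974 to 0.995 in Epi, 0.936 to 0.946 in emMidgut and 0.955 to 0.960 in emHindgut. Since TPM keeps no depth, the precision of a value is known from the replicates alone.

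The markers followed the labels, with the exceptions given here. All 10 epiblast markers lay above 1 TPM in every Epi library, and their summed level there was 3776 to 5295 TPM. In the gut libraries that sum was 182, 41.3, 205 and 46.1 TPM in emMidgut and 46.3 to 58.7 TPM in emHindgut. Of 15 gut endoderm markers, 14 lay above 1 TPM in every emMidgut library and 13 in every emHindgut library. Gata4 was listed at 0 in all 4 emHindgut libraries and Hnf4a stayed under 1 TPM there. Although the Epi protocol in the labels speaks of embryonic visceral endoderm, 10 visceral endoderm markers summed to only 14.8 to 16 TPM in the Epi libraries, with Ttr listed at 0. EGFP was at 179.6 to 532 TPM in Epi and 548 to 880.2 TPM in the gut, and mCherry at 0 to 0.822 TPM in Epi and 0 to 6.61 TPM in the gut. Epcam, used to sort the gut cells, was at 271 to 357 TPM in Epi and 331 to 892 TPM in the gut.

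Markers of other cell types were low in both tissues in most lists. The 9 blood markers summed to 3.22 to 4.33 TPM in Epi and 0.165 to 5.87 TPM in the gut, with Hbb-bh1 and Hbb-y listed at 0 in all 12 libraries. The 7 endothelial markers summed to at most 2.71 TPM in Epi and 8.16 TPM in the gut. The 10 mesenchyme markers summed to 2.49 to 9.67 TPM in Epi, 7.57 to 24.7 TPM in emMidgut and 34.2 to 62.5 TPM in emHindgut. The 7 surface ectoderm markers, with a sum of 0.159 to 0.585 TPM in Epi, summed to 9.96 to 13.3 TPM in emMidgut and 18.5 to 23.9 TPM in emHindgut. Neural markers summed to 44.6 to 55.4 TPM in Epi, 12.3 to 59.4 TPM in emMidgut and at most 1.07 TPM in emHindgut. The 7 extraembryonic ectoderm markers summed to 17.7 to 125 TPM in Epi and 246 to 401 TPM in the gut, a list that holds Cdx2. The part of these cells in the results below was not tested. The 7 germ cell markers stood apart in a pair of libraries, with sums of 380, 104, 334 and 127 TPM in emMidgut replicates 1 to 4, 39.7 to 59 TPM in emHindgut and 22.1 to 51.2 TPM in Epi. Dppa3, a gene of germ cells and the preimplantation embryo, was at 224, 0, 183 and 0 TPM in emMidgut replicates 1 to 4 and at 0 in all emHindgut libraries. The emMidgut replicates 1 and 3 that hold Dppa3 also held Pou5f1, Nanog and Utf1, and their sums of 7 genes that mark extraembryonic lineages were 164 and 115 TPM, against 3.31 and 0.236 TPM in the other emMidgut libraries. Each list count below was also made without these libraries and is given so where it differed by at least 2 genes in a direction.

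Between Epi and emGut, 3079 of 14412 genes tested were called higher in the gut (21.4%) and 1181 lower (8.19%), at an adjusted p under 0.05 in limma and a log2 difference above 1. Leaving out emMidgut replicates 1 and 3 gave 3032 higher and 1105 lower. Each list count below is to be read against these all-gene shares. Against Epi they were 25.8% higher and 11.1% lower in emMidgut, and 20.4% and 7.43% in emHindgut. The 4 Epi and 8 gut values did not overlap for 4661 of the genes tested (32.3%), and for 3330 of the 4260 genes called. The median difference of all genes tested was 0.275. The 10 highest genes held 7.17 to 7.83% of TPM in Epi and 5.54 to 6.32% in the gut. Median-ratio rescaling moved that median by 0.232 to 0.0432 and the calls to 2463 higher and 1712 lower. Quantile normalization gave 2087 higher and 2235 lower. The split between higher and lower therefore moved with the scaling, and small differences are to be read against the all-gene median.

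**Figure D1:**
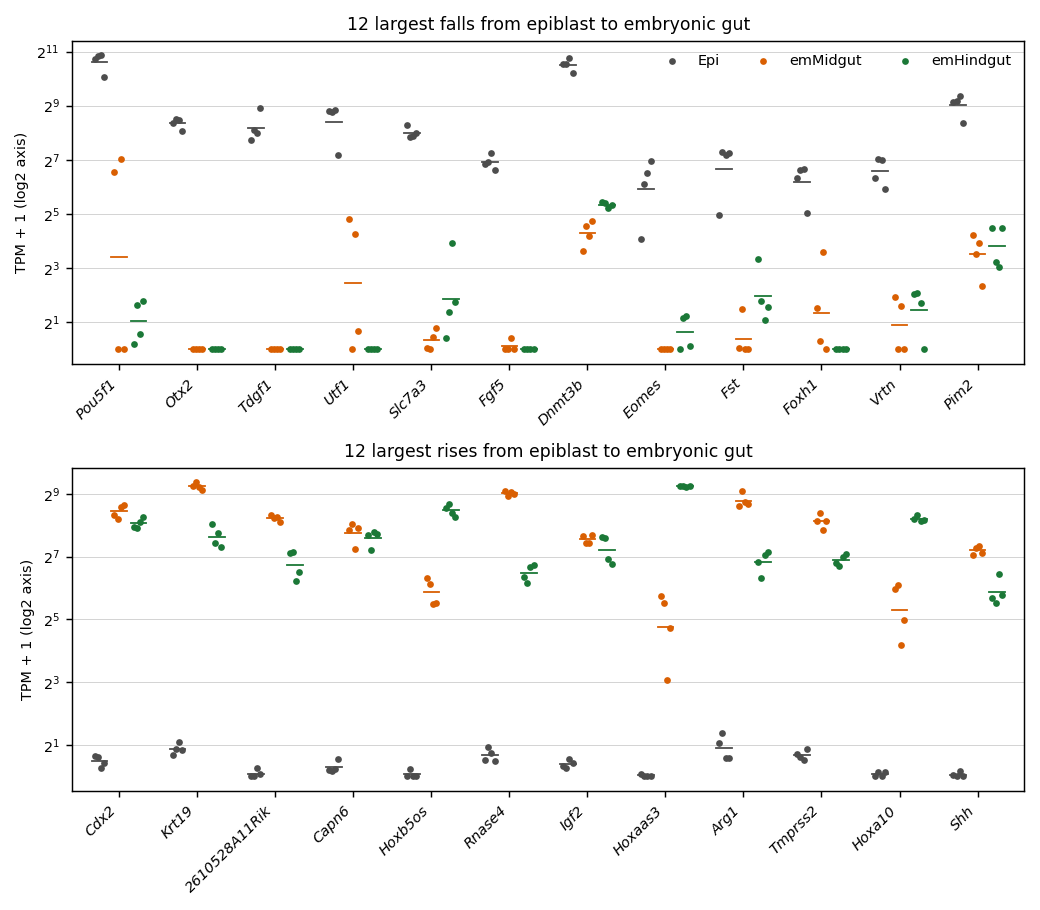
TPM + 1 on a log2 axis for the 12 genes with the largest falls (top) and the 12 with the largest rises (bottom) from epiblast to embryonic gut. Each dot is a library, in order of replicate number, and each bar the mean on the log scale of 4 libraries of Epi (grey), emMidgut (orange) or emHindgut (green). The Epi values lie apart from all 8 gut values for every gene shown, as the choice of genes required, and Pou5f1 and Utf1 split the emMidgut libraries, with replicates 1 and 3 high.

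The pluripotency programme went down. Of 32 genes tested on that list, 19 were called lower and 2 higher, with a median difference of -2.01 against 0.275 over all genes, and without emMidgut replicates 1 and 3 the counts were again 19 and 2. Without Epi replicate 1, which leaves genes seen in Epi alone above 1 TPM in too few libraries to enter the test, 10 were called lower and 1 higher. Pou5f1 (chr17:35506018-35510772 in mm10), the POU factor at the centre of the pluripotency network, was at 1694, 1824, 1852 and 1067 TPM in the Epi libraries. It was at 93.6, 0, 131 and 0 TPM in emMidgut and 0.146, 2.1, 0.476 and 2.4 TPM in emHindgut. The groups did not overlap, and emMidgut replicates 1 and 3 held nearly all that was left (difference -8.4 ± 1.24 SE, adjusted p = 7.0e-05). In such bulk libraries fewer cells that express a gene and less RNA per cell cannot be told apart. Otx2, a homeobox factor of the epiblast and the anterior brain, was at 331, 359, 352 and 268 TPM in Epi and listed at 0 in all 8 gut libraries (adjusted p = 4.5e-13). Utf1, a chromatin factor of pluripotent cells, went from 449.8, 434, 452 and 145 TPM to 27.4, 0, 18 and 0.606 TPM in emMidgut and 0 in emHindgut. Fgf5, the ligand that marks the postimplantation epiblast, fell from a range of 97.9 to 149.7 TPM to at most 0.33 TPM (difference -6.86 ± 0.22, adjusted p = 1.5e-11).

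Not every gene of this state behaved alike. Nanog went from 45.5, 68.2, 62.2 and 70.4 TPM in Epi to 15.8, 0, 9.75 and 0 TPM in emMidgut and at most 0.308 TPM in emHindgut (difference -4.95 ± 0.75, adjusted p = 9.1e-05). Sox2, which the foregut and neural tube also use, was at 31.4, 25.3, 26.6 and 32.3 TPM in Epi, 11.4, 2.11, 4.5 and 1.25 TPM in emMidgut and 19.6, 11.7, 22.4 and 24.5 TPM in emHindgut. Its fall in emGut (difference -1.62 ± 0.59, adjusted p = 0.0354) was lost without emMidgut replicates 1 and 3 (difference -1.55), and hindgut was above midgut by 2.09 ± 0.4 (adjusted p = 0.00105). Sall4, a zinc finger factor, did not pass the test, with 144 TPM in Epi, 101 TPM in emMidgut and 174 TPM in emHindgut. The other large falls were the amino acid transporter Slc7a3 (257 to 2.44 TPM, difference -6.91), the kinase Pim2 (531 to 13.1 TPM, -5.36) and Vrtn (98.5 to 1.67 TPM, -5.4). L1td1, an RNA-binding protein of pluripotent cells, fell from a range of 186 to 261 TPM to a range of 18.6 to 33.4 TPM in emMidgut and 3.61 to 7.88 TPM in emHindgut (-4.11 ± 0.52). The 2 members called higher were Klf4 (1.25 to 4.24 TPM) and the nuclear receptor Nr5a2 (0.14 to 13.9 TPM), both of which epithelia of the later gut use too. Klf4 lay close to the size limit (1.08 ± 0.38). After median-ratio rescaling and after quantile normalization the list counted 1 gene higher and 23 lower.

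Promoters of 4 genes among the largest rises and falls are shown because they hold the letters searched for, and were chosen after that search. RefSeq windows on GRCm38.p6, the build of mm10, run from 250 bases before to 50 after a start, and 16 of the 24 genes with the largest rises and falls have at least 1. Capitals mark the octamer ATGCAAAT, which POU factors bind, the forkhead letters TGTTTAC and the TATA box TATAAA, each searched on both strands. The 16 genes have 27 windows, of which 6 hold a match and 21 none, and the windows printed were taken from those 6.
Cdx2, chr5:147307200-147307499, minus strand: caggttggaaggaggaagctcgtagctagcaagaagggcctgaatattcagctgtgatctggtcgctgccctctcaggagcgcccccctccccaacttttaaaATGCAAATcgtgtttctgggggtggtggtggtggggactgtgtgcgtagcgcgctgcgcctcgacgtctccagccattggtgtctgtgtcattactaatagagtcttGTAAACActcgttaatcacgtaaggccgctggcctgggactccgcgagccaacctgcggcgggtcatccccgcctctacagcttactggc
Pim2, chrX:7878056-7878355, plus strand: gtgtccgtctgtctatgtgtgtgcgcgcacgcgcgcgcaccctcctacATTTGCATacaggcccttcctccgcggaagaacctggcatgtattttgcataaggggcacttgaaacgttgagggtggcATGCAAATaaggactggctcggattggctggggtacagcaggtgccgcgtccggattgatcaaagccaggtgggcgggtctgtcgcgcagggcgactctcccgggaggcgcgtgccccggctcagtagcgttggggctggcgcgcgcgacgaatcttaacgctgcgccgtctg
Fgf5, chr5:98253934-98254233, plus strand: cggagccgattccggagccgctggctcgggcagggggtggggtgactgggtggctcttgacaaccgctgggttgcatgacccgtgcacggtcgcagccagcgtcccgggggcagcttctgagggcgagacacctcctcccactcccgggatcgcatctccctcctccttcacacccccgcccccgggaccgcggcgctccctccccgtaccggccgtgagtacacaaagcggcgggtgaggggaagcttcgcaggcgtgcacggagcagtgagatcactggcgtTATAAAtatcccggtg
Hoxa10, chr6:52234890-52235189, minus strand: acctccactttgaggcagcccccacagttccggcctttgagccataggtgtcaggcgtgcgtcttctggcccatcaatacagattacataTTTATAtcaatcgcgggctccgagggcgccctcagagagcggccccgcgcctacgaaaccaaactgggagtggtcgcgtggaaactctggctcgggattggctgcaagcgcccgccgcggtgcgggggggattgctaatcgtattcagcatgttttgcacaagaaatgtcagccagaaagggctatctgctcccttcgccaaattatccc
The Cdx2 window holds an octamer and, on the other strand, a forkhead match, the Pim2 window holds an octamer on each strand, the Fgf5 window holds the TATA letters on its own strand and the Hoxa10 window on the other strand (printed as TTTATA). The other Hoxa10 window and those of Pou5f1, Tdgf1, Dnmt3b and Eomes hold no match. Among the windows of all genes tested, 1.32% hold the octamer, 2.81% the forkhead letters and 7.39% the TATA box. For genes called lower these shares were 2.17%, 2.37% and 8.88%, and for genes called higher 1.51%, 3.34% and 9.34%. The median number of CG dinucleotides in a window was 20 for all genes tested, 18 for genes called higher and 16 for genes called lower. A match is a description of letters and not a bound site.

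The Nodal ligand, its co-receptor and its inhibitors fell. Of 16 pathway genes tested, 6 were called lower and 3 higher (3 and 3 without Epi replicate 1, for the same reason of entry). Tdgf1, the Nodal co-receptor, was at 212, 269.9, 249.8 and 479.9 TPM in Epi and at 0 in all 8 gut libraries (adjusted p = 4.7e-12). Nodal itself was at 28.4, 25.5, 21.2 and 9.99 TPM in Epi and 0 to 4.54 TPM in the gut (difference -3.89 ± 0.46, adjusted p = 9.3e-06). The Nodal inhibitor Lefty2 was at 12.1 to 64.1 TPM in Epi and listed at 0 in the gut, and Lefty1 fell from 7.94 to 0.234 TPM. Foxh1, the forkhead partner of the Smads, fell from a range of 32 to 101 TPM to at most 10.9 TPM. Outside the list, Fst, which binds activin, fell from 30.4, 156, 142 and 149 TPM to at most 9.15 TPM (difference -5.5 ± 0.61). Other members did not follow. The receptor Acvr2b was at 67.8 TPM in Epi and 64.3 TPM in the gut, the signal carrier Smad2 at 29.4 and 38.2 TPM, and neither passed the test. Smad3 rose from 5.26 to 24.4 TPM (1.93 ± 0.31, adjusted p = 1.4e-04).

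Primitive streak genes split by region. Of 15 tested, 5 were called lower in emGut and 1 higher, whereas against Epi 12 were called lower in emMidgut, where 11.1% of all genes were, and in emHindgut 7 higher, where 20.4% were, and 5 lower, where 7.43% were. Eomes, the T-box factor of the streak and early endoderm, was at 15.6, 68.5, 89.3 and 122 TPM in Epi, 0 in emMidgut and 0, 1.24, 1.33 and 0.0955 TPM in emHindgut (difference -5.59 ± 0.47, adjusted p = 3.2e-07). Mesp1, Gsc and Lhx1 fell likewise, from means of 34.5, 27.4 and 31.9 TPM to 0.344, 0.371 and 0.313 TPM. T, brachyury, was at 1.05, 23.4, 24.1 and 53.5 TPM in Epi, 11.9, 3.55, 0 and 0 TPM in emMidgut and 239, 177, 258 and 312 TPM in emHindgut. Mixl1 was at 1.9, 141, 144 and 227 TPM in Epi, 0, 0, 0 and 0.79 TPM in emMidgut and 32.5, 68.7, 51.1 and 38.4 TPM in emHindgut. Epi replicate 1 was thus far below the other Epi libraries for T and Mixl1. Without it, the Mixl1 difference of -3.05 became -4.51 and passed the test, and that of T turned from 0.68 to -0.31 without passing in either case. Tbx6, a factor of presomitic mesoderm, was at most 1.47 TPM in Epi, at most 0.444 TPM in emMidgut and at 58.9, 67.4, 53.7 and 31.4 TPM in emHindgut. By the study's methods the hindgut sample was the rearmost piece of the embryo, with the hindgut in it, before the EPCAM sort. None of the marker lists covers presomitic mesoderm, and the part of such cells in the emHindgut values was not tested.

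**Figure D2:**
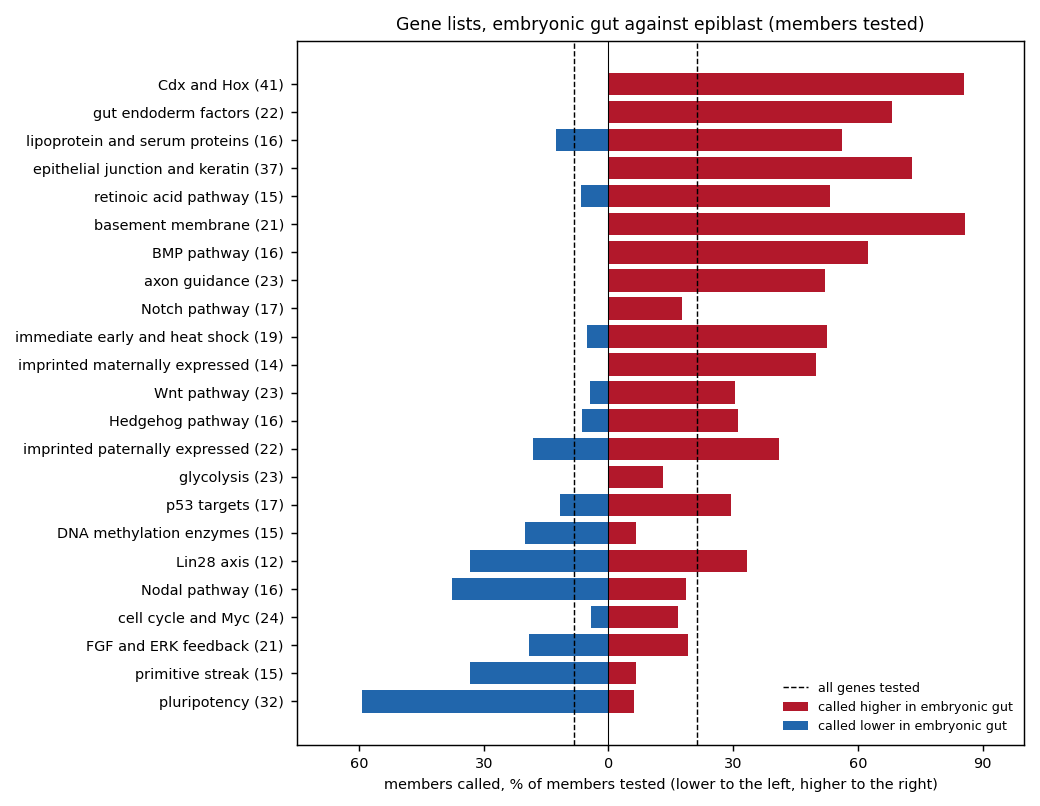
Share of the tested members of 23 gene lists called higher (red, to the right) or lower (blue, to the left) in embryonic gut against epiblast, in percent, ordered by median difference. Dashed lines mark the same shares over all 14412 genes tested, 21.4% and 8.19%. Pluripotency, primitive streak and Nodal genes lie at the lower end, and Cdx and Hox genes, basement membrane and epithelial genes carry the largest shares called higher.

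Position genes rose from levels near 0. Of 41 Cdx and Hox genes tested, 35 were called higher in emGut and none lower, with a median difference of 3.45. Genes near 0 in Epi enter the test only through the gut libraries and cannot be called lower, so the lack of lower calls carries little information. All 41 were called higher in emHindgut and 31 in emMidgut, where 25.8% of all genes were. Under median-ratio rescaling 35 were called higher, under quantile normalization 36, and without emMidgut replicates 1 and 3 40. Cdx2 (chr5:147300805-147307270), the homeobox factor that sets intestinal identity, showed the largest rise of all genes tested, from 0.548, 0.535, 0.196 and 0.338 TPM in Epi to 320.1, 293, 384 and 401 TPM in emMidgut and 248, 242, 272 and 306 TPM in emHindgut (difference 7.77 ± 0.16, adjusted p = 1.5e-13). Hoxa10, a posterior Hox gene, was at most 0.0873 TPM in Epi, at 61.8, 67.5, 17 and 30.4 TPM in emMidgut and 292, 319.7, 279 and 289 TPM in emHindgut (6.7 ± 0.72, adjusted p = 3.6e-06). Hoxb9 rose from at most 0.0784 TPM to 11.2 to 21.4 TPM in midgut and 42.8 to 62.5 TPM in hindgut, and Hoxc10 to 0 to 22 and 155 to 174 TPM. Cdx1 stayed low, at 0 to 1.75 TPM in emMidgut and 0.856 to 6.63 TPM in emHindgut, and did not pass the pooled test (0.96 ± 0.52), although it passed in emHindgut (1.78 ± 0.42). The long antisense RNAs Hoxb5os (208 TPM in the gut) and Hoxaas3 (320.3 TPM) are among the largest rises. They overlap Hoxb5, Hoxb6 and Hoxa3 to Hoxa7 on the other strand, and reads of the partners cannot be told apart in cDNA without strand marks.

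Hindgut carried more Hox RNA than midgut, most of all for the last paralogues. Of the 41 genes, 37 were called higher in emHindgut than in emMidgut, against 6.15% of all genes tested. The median hindgut minus midgut difference was 2.16 over 8 genes of paralogues 1 to 3, 1.92 over 10 of paralogues 4 to 6, 2.40 over 9 of paralogues 7 to 9 and 4.06 over 11 of paralogues 10 to 13. For that last class the median level was 0.790 TPM in emMidgut and 48.6 TPM in emHindgut. Hoxc12 was listed at 0 in emMidgut and at 28.7, 17.6, 34.6 and 22.7 TPM in emHindgut. Hoxb13 stayed under 1 TPM in all 12 libraries and was not tested. Cdx4, which acts with Cdx2 in the tail, was at 42.6, 34.4, 3.57 and 2.83 TPM in emMidgut and 451, 509, 437 and 526 TPM in emHindgut (hindgut minus midgut 5.23 ± 0.6, adjusted p = 7.7e-06).

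**Figure D3:**
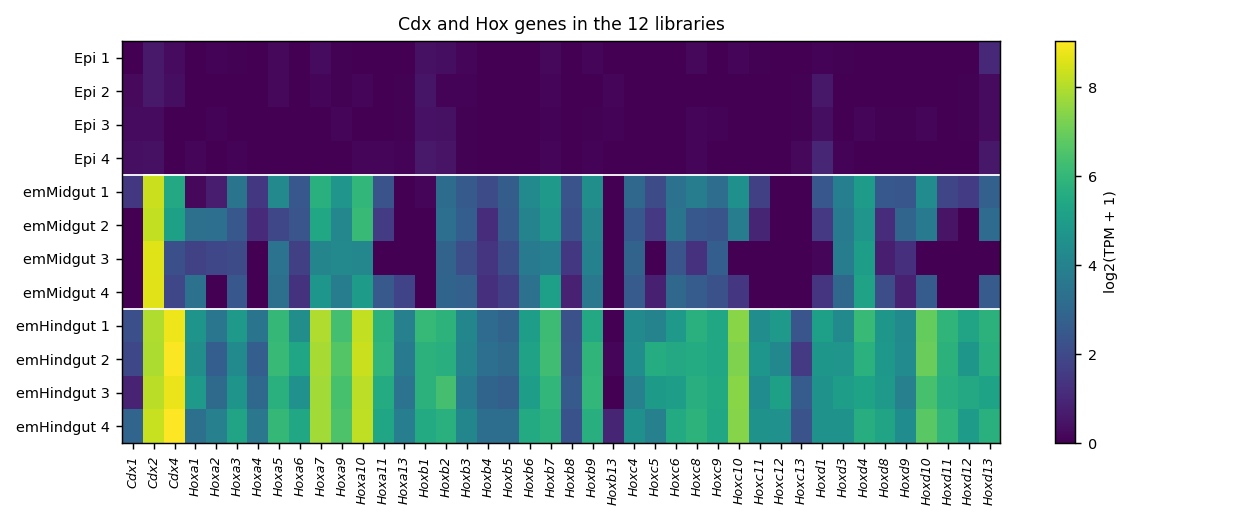
Heat map of log2(TPM + 1) for 3 Cdx genes and the Hox genes of the 4 clusters in the 12 libraries, rows being libraries and columns genes in cluster order. The Epi rows are near 0 throughout, the emMidgut rows fade in the paralogues from 10 upwards, and the emHindgut rows are filled except at Hoxb13.

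Gut endoderm factors rose as a group, with 15 of 22 tested called higher and none lower. The median difference was 2.39, and 13 were called higher after median-ratio rescaling and 12 without emMidgut replicates 1 and 3, with none lower in either. In emMidgut 19 were called higher and in emHindgut 13. Foxa1, a pioneer factor of endoderm, was at 0.204, 0.474, 0.472 and 0.247 TPM in Epi, 96.3, 127, 126 and 146 TPM in emMidgut and 18.9, 12.8, 17.5 and 33.3 TPM in emHindgut (difference 5.23 ± 0.63, adjusted p = 1.1e-05). Foxa2, which the streak already uses, was at 0.121, 21.2, 25.1 and 18.7 TPM in Epi and 30.6 to 54.3 TPM in the gut (2.14 ± 0.62). Foxa3 rose from a range of 1.01 to 1.48 TPM to a range of 8.61 to 44 TPM. Sox9 (0.587 to 28.5 TPM), Osr1 (0.223 to 22.6 TPM) and Tbx3 (0.853 to 32.3 TPM) rose in both regions. Sox17 showed 0.23, 3.11, 2.39 and 0.809 TPM in Epi, 6.35, 2.34, 7.32 and 0 TPM in emMidgut and 12.7, 26.5, 25.2 and 16.4 TPM in emHindgut, and its call was lost under median-ratio rescaling and without emMidgut replicates 1 and 3.

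Several well known endoderm factors differed between the regions. Gata4 was at 1.81, 12.3, 19.4 and 21.8 TPM in emMidgut and 0 in emHindgut, with 0.123, 0.603, 1.52 and 3.68 TPM in Epi. Gata6 was at 23.1 and 3.32 TPM in the regions, with hindgut minus midgut -2.53 ± 0.48 (adjusted p = 9.5e-04). Hnf4a, a nuclear receptor of absorptive epithelium, was at 4.27, 6.54, 14.4 and 13 TPM in emMidgut and at most 0.308 TPM in emHindgut. Onecut1 and Isx, both listed at 0 in emHindgut, were at 12.1 and 30.2 TPM in emMidgut. In the other direction, Pax9 was at 2.45 TPM in emMidgut and 49.9 TPM in emHindgut.

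The Hedgehog ligands switched on, and fewer of the other pathway genes moved. Of 16 tested, 5 were called higher and 1 lower, beside 21.4% and 8.19% of all genes tested. After median-ratio rescaling the counts were 3 and 1, and Ptch1 lost its call. Without emMidgut replicates 1 and 3 the counts were 7 and 1, and by region 3 and 1 in emMidgut and 9 and 1 in emHindgut. Shh (chr5:28456815-28467256) was at 0.0211, 0, 0.109 and 0 TPM in Epi, 131, 155, 161 and 138 TPM in emMidgut and 50.2, 45.4, 86.6 and 53.9 TPM in emHindgut (difference 6.48 ± 0.35, adjusted p = 3.6e-09). Ihh went from at most 0.0797 TPM to 21.4 to 39.9 TPM in midgut and 2.31 to 7.85 TPM in hindgut, and Hhat, which adds the palmitoyl group to the ligands, from 0.691 to 9.72 TPM. The receptor Ptch1 was at 10.4 to 21.6 TPM in Epi and 21.8 to 62.6 TPM in the gut (1.22 ± 0.3). Gli1, a target that reports signalling in a receiving cell, was at 1.24, 1.72 and 5.06 TPM in the 3 groups and did not pass the pooled test. Gli2 fell from 4.18 to 0.259 TPM.

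Among FGF genes, 3 ligands fell while 3 receptors and another ligand rose. Of 21 genes tested, 4 were called higher (Fgf9, Fgfr2, Fgfr3 and Fgfr4) and 4 lower (2 lower without Epi replicate 1). Over all genes tested the shares were 21.4% and 8.19%. These pooled counts describe neither region, since 4 were called higher and 12 lower in emMidgut and 11 higher and 3 lower in emHindgut. The all-gene shares were 25.8% and 11.1% in emMidgut and 20.4% and 7.43% in emHindgut. Fgf5, Fgf15 and Fgf4 fell, from means of 121, 39.4 and 6.21 TPM to 0.0412, 7.09 and 0.848 TPM. Fgfr2 was at 2.05 to 3.13 TPM in Epi, 50.8 to 62.2 TPM in emMidgut and 9.83 to 20.9 TPM in emHindgut (3.19 ± 0.44, adjusted p = 3.6e-05). Fgfr4 was at most 0.123 TPM in Epi, 33.7 to 63.5 TPM in emMidgut and 1.94 to 4.23 TPM in emHindgut, and Fgf9 rose from 1.19 to 9.94 TPM. Fgfr1 did not pass the test, at 27.9 and 45.2 TPM.

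In the BMP pathway 10 of 16 genes were called higher and none lower, with a median of 1.52. Id2, a BMP target that blocks bHLH factors, went from 42, 28.3, 24.4 and 23.9 TPM in Epi to 733 to 1127 TPM in the gut (4.9 ± 0.16, adjusted p = 1.5e-11). Bmp4 was at 1.44 to 2.7 TPM in Epi, 1.65 to 20.4 TPM in emMidgut and 147 to 230.2 TPM in emHindgut, and Msx2 followed with 0.807, 7.45 and 57.8 TPM. Bambi, a decoy receptor, rose from 6.17 to 56.1 TPM. Among 15 retinoic acid genes 8 were called higher and 1 lower. Rarb, a receptor and target of the pathway, was at most 0.24 TPM in Epi, 66.9 to 106 TPM in emMidgut and 2.3 to 20.5 TPM in emHindgut. Dhrs3, which turns retinal back to retinol, rose from 1.68 to 50.1 TPM, and the synthesis enzyme Aldh1a2 from 0.186 to 19.9 TPM. Cyp26a1, which degrades retinoic acid, was at 38.3, 7.24 and 589 TPM and did not pass the pooled test.

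Wnt genes gave 7 calls higher and 1 lower of 23, and Notch genes 3 higher and none lower of 17. Over all genes tested 21.4% were called higher and 8.19% lower. The all-gene shares by region were 25.8% and 11.1% in emMidgut and 20.4% and 7.43% in emHindgut. By region, Wnt genes gave 6 higher and 7 lower in emMidgut and 13 and 3 in emHindgut, and Notch genes 3 and 2 in emMidgut and 12 and none in emHindgut. Without emMidgut replicates 1 and 3, 9 Wnt genes were called higher and 1 lower, and 7 Notch genes higher and 1 lower. Wnt5a rose from a range of 0.94 to 1.94 TPM to a range of 9.91 to 19.3 TPM in emMidgut and 129 to 149 TPM in emHindgut (4.37 ± 0.75), and Rnf43, a target that removes Wnt receptors, from 0.346 to 29.5 TPM. Wnt3a was listed at 0 in emMidgut and at 49.5, 43, 55.7 and 49.5 TPM in emHindgut. Fzd7 was the Wnt member that fell, from a range of 30.2 to 41 TPM to a range of 8.69 to 19.9 TPM (-1.31 ± 0.2). Hes1 led the Notch list (32.8 to 212 TPM, 2.65 ± 0.22). The 2 receptors called, Notch2 (1.24) and Notch3 (1.23), lost their calls under median-ratio rescaling, which left 1 gene higher and 1 lower. Without emMidgut replicates 1 and 3, 7 Notch genes were called higher and 1 lower.

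RNA of most keratin and junction genes tested was higher in the gut, while that of the main epithelial cadherin did not pass the pooled test. Of 37 epithelial genes tested, 27 were called higher and none lower (median 2.00, and 26 and none after median-ratio rescaling). Between the regions, 24 of the 37 were called lower in emHindgut than in emMidgut and 1 higher, beside 8.74% and 6.15% of all genes tested. Krt19 (chr11:100140810-100148665) was at 0.6, 0.826, 1.1 and 0.777 TPM in Epi, 604, 659.7, 599.6 and 554 TPM in emMidgut and 263, 170.2, 215 and 159 TPM in emHindgut (7.57 ± 0.39, adjusted p = 2.4e-09). Krt8 rose from a range of 27.7 to 39.1 TPM to a range of 1389.5 to 1844 TPM and 495 to 646 TPM in the regions, and Krt18 from a range of 29.9 to 76.8 TPM to a range of 1156 to 1430.2 and 305 to 499 TPM. The claudins Cldn4 (17.3 to 339.7 TPM), Cldn9 (2.44 to 85.8 TPM) and Cldn6 (218 to 1168 TPM) rose, as did the desmosome protein Dsp (0.791 to 41.7 TPM). Cdh1, E-cadherin, was at 111, 97.3, 106 and 85.1 TPM in Epi, 140.4, 154, 143 and 167 TPM in emMidgut and 63.6, 49.5, 69.2 and 66.9 TPM in emHindgut (emGut minus Epi -0.04 ± 0.31). Cdh2, N-cadherin, was at 16.6, 14.4 and 91.1 TPM and did not pass the pooled test (1.25 ± 0.67).

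Basement membrane genes rose as a group: 18 of 21 were called higher and none lower, with a median of 1.73 (17 and none after median-ratio rescaling). Lama1, a laminin chain of early basement membranes, was at 0.306 to 1.24 TPM in Epi and 12.4 to 30.2 TPM in the gut (3.78 ± 0.28, adjusted p = 7.5e-08). Fn1, fibronectin, rose from a range of 19.7 to 95.3 TPM to a range of 299 to 499.7 TPM, and the collagen IV chains Col4a1 and Col4a2 from 4.94 and 1.18 TPM to 44.2 and 15.3 TPM. Lamb3, another laminin chain, rose from 0.168 to 12.8 TPM, with means of 23.3 TPM in emMidgut and 2.31 TPM in emHindgut.

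Dnmt3b and its cofactor fell, whereas Dnmt3a did not pass the size limit and Dnmt1 did not pass the test. Dnmt3b (chr2:153649450-153687730), which lays down methylation in the epiblast, was at 1486, 1486, 1723 and 1167 TPM in Epi, 11.5, 22.7, 17.2 and 25.8 TPM in emMidgut and 42.2, 41.3, 36.3 and 38.7 TPM in emHindgut (difference -5.69 ± 0.3, adjusted p = 2.5e-09). Its cofactor Dnmt3l was at 2.55 to 19 TPM in Epi and listed at 0 in all 8 gut libraries. The sister enzyme Dnmt3a was at 307, 239, 256 and 107 TPM in Epi and 88.5 to 167 TPM in the gut and did not pass the size limit (-0.69 ± 0.25). Dnmt3b was thus the higher of the pair in every Epi library and Dnmt3a in every gut library. Dnmt3b has an antisense partner, Dnmt3bos. Dnmt1, the maintenance enzyme, was at 72 TPM in Epi and 89.8 TPM in the gut (0.3 ± 0.18, not past the test). Of the oxidases, Tet1 fell (101 to 37.6 TPM, -1.47 ± 0.26) and Tet2 rose (1.84 to 16.8 TPM, 2.56 ± 0.38). Over the 15 enzymes and partners 3 were called lower and 1 higher, and the median of 0.12 turned to -0.11 under median-ratio rescaling.

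The Lin28 axis, which holds back let-7 microRNAs in early embryos, split evenly, with 4 of 12 genes called lower and 4 higher. Lin28a was at 117 to 216 TPM in Epi and 39.4 to 99 TPM in the gut (-1.35 ± 0.23), and Lin28b at 56.5 to 81.5 TPM in Epi, 10.5 to 14.4 TPM in emMidgut and 23.1 to 39.2 TPM in emHindgut (-1.75 ± 0.33). Trim71 fell with them (50.7 to 17.3 TPM). Hmga2, a let-7 target, rose from a range of 30.7 to 81.8 TPM to a range of 207 to 285 TPM (2.23 ± 0.19, adjusted p = 3.8e-07), while its relative Hmga1 fell from 1011 to 407 TPM. Igf2bp1, another let-7 target, was at 114 to 163 TPM and 126 to 162 TPM and did not pass (0.06 ± 0.12, a sign that turned under rescaling). Dis3l2, which degrades tailed let-7 precursors, rose from 10.4 to 33.1 TPM.

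Imprinted growth genes rose from low levels. Igf2 (chr7:142650766-142666816), the paternally expressed fetal growth factor, was at 0.248, 0.206, 0.454 and 0.333 TPM in Epi, 202, 173, 172 and 204 TPM in emMidgut and 198, 191, 119 and 109 TPM in emHindgut (difference 7.0 ± 0.19, adjusted p = 1.8e-12). H19, its maternally expressed neighbour (chr7:142575529-142578143), was at 1.26, 0.596, 0.491 and 0.614 TPM in Epi, 5.82, 3.05, 119 and 138 TPM in emMidgut and 8, 7.46, 106 and 137 TPM in emHindgut (4.09 ± 0.98, adjusted p = 0.00328). In both regions replicates 1 and 2 were low and replicates 3 and 4 high for H19, whereas Igf2 was at higher values in replicates 1 and 2 of emHindgut and showed no such split in emMidgut. The maternally expressed cell cycle inhibitor Cdkn1c rose from a range of 2.89 to 5.09 TPM to a range of 188 to 276 TPM in midgut and 49.5 to 94.4 TPM in hindgut, and the paternally expressed Dlk1 from at most 0.211 TPM to 21 to 34.5 TPM. Over 14 maternally expressed genes 7 were called higher and none lower, and over 22 paternally expressed genes 9 higher and 4 lower. Sgce (4.88 to 80.8 TPM), Plagl1 (1.04 to 35.6 TPM) and Peg3 (47.9 to 590.5 TPM) rose, and Snrpn, which overlaps Snurf, fell (399 to 144 TPM). Without emMidgut replicates 1 and 3 the paternally expressed genes called lower numbered 1. Airn (0.177 to 70.4 TPM) and Igf2r (8.73 to 63.1 TPM) both rose, but they overlap on opposite strands, so their reads cannot be told apart where they do. Igf2 likewise has the antisense partner Igf2os. Meg3 and Rian, long RNAs abundant in Epi at 262 and 435 TPM, did not pass the test.

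A count with no model gave 49 genes under 1 TPM in every Epi library and above 10 TPM in every gut library, and 10 of the reverse. Without emMidgut replicates 1 and 3 the genes that went off numbered 19. Besides Cdx2, Shh, Foxa1, Igf2, Dlk1 and 6 Hox genes, those that came on include the calpain Capn6 (147 to 264 TPM in the gut), the protease Tmprss2 (103 to 335 TPM), the fatty acid binding protein Fabp1 (11.1 to 249 TPM), the guidance receptors Robo2 (41.3 to 149 TPM) and Nrp1 (38.5 to 94 TPM), Gata3 (27.8 to 54.5 TPM) and the orphan receptor Nr2f2 (19.8 to 118 TPM). Rnase4 (0.59 to 305 TPM) and Ang (0.175 to 60.1 TPM), secreted ribonucleases that overlap on 1 strand, came on together. 2610528A11Rik (0.0593 to 204 TPM) and the arginase gene Arg1 (0.912 to 278 TPM) were also among the 12 largest rises. Limits of 1 and 20 TPM gave 22 on and 5 off. The genes that went off were Otx2 and its antisense partner Otx2os1, Tdgf1, Fgf5, Lefty2, Pou3f1, Slc35d3, Zfp36l3, 1700013H16Rik and Gm12688.

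Serum and lipoprotein genes rose in midgut above all. Of 16 tested, 9 were called higher and 2 lower in emGut, and 7 and 2 without emMidgut replicates 1 and 3. In emMidgut 12 were called higher and 1 lower, and in emHindgut 7 higher and 4 lower. Afp, the fetal serum albumin relative, was at most 0.325 TPM in Epi, at 662, 734, 951 and 978 TPM in emMidgut and 4.83, 2.13, 18.9 and 6.05 TPM in emHindgut (6.02 ± 1.59, adjusted p = 0.00608). Ttr was listed at 0 in Epi and was at 148 to 268 TPM in emMidgut and 0 to 18.9 TPM in emHindgut. Apoa1 was at 29.7, 183, 236 and 259.5 TPM in emMidgut and 0.302 to 4.94 TPM in emHindgut, and Rbp4 at 1128 and 32.1 TPM. These genes also stand on the list of 10 visceral endoderm markers, whose sum was 1932 to 3759 TPM in emMidgut and 53.7 to 143 TPM in emHindgut, and the part of extraembryonic cells in these values was not tested. EGFP was at 701 to 880.2 TPM and mCherry at 0 to 5.29 TPM in emMidgut. The cells were sorted on both reporters, so these levels do not measure that part.

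Of 23 genes of axon guidance, known also from epithelial boundaries, 12 were called higher in emGut and none lower, and 12 and 1 after median-ratio rescaling. In emMidgut 11 were called higher and 3 lower, and in emHindgut 12 and none. Robo2 led the list (5.83 ± 0.36), followed by Nrp1 (5.08 ± 0.24), Efna1 (3.48 to 124 TPM) and Nrp2 (1.1 to 39.3 TPM). A list of immediate early and heat shock genes gave 10 of 19 higher and 1 lower. Immediate early genes respond within minutes to handling as well as to signals. Fos was at 4.6, 4.87, 6.13 and 4.14 TPM in Epi, 37.2, 20.2, 66.5 and 32.9 TPM in emMidgut and 187, 102, 228 and 153 TPM in emHindgut (3.71 ± 0.55, adjusted p = 7.1e-05), Jun rose from 15.3 to 246 TPM and the chaperone Hsph1 fell from 162 to 55.3 TPM. The gut cells were sorted whereas Epi was drawn through a capillary, which cannot be told apart from the stage.

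Few glycolysis and cell cycle genes passed the pooled test. Of 23 glycolysis entries 3 were called higher and none lower. The glucose transporter Slc2a3 rose from a range of 48 to 56 TPM to a range of 291 to 461 TPM (2.92 ± 0.12, adjusted p = 3.4e-10), whereas Slc2a1 was at 282 to 538 TPM and 246 to 819 TPM (0.1 ± 0.34, a sign that turned under rescaling). The lactate transporter Slc16a1 rose (53.3 to 219 TPM). Of 24 cell cycle genes 4 were called higher and 1 lower in emGut, 5 and 6 in emMidgut and 6 and 1 in emHindgut. In the same order, the all-gene shares were 21.4% and 8.19%, 25.8% and 11.1%, and 20.4% and 7.43%. The cyclin Ccnd2 rose from a range of 7.32 to 26.1 TPM to a range of 117 to 225 TPM and the inhibitor Cdkn1a from a range of 6.19 to 17.7 TPM to a range of 181 to 312 TPM (4.44 ± 0.22), and Ccne1 fell from a range of 144 to 284 TPM to a range of 39.8 to 84.7 TPM. Mycn was at 94.9, 33.5 and 84 TPM and Myc at 43.9, 7.2 and 41.6 TPM in the 3 groups, and neither passed the pooled test. Among 17 p53 targets 5 were called higher and 2 lower in emGut, beside 21.4% and 8.19% of all genes tested. Cdkn1a and Plk2 (1.7 to 52 TPM) led the rises and Pmaip1 (75.6 to 8.79 TPM) the falls. The list's median of 0.30 turned to -0.18 under quantile normalization.

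The libraries of the 2 regions, which were also dissected differently, differed in their change from the epiblast. Against Epi, 3719 genes were called higher (25.8%) and 1594 lower (11.1%) in emMidgut, and 2942 higher (20.4%) and 1071 lower (7.43%) in emHindgut. Both contrasts share the Epi libraries: 2206 genes (15.3%) were called higher and 801 (5.56%) lower in each. Between the regions, 887 genes were called higher in emHindgut (6.15%) and 1259 lower (8.74%), and 1020 of the 4260 genes called in emGut against Epi were among them. The largest midgut excess was that of Nepn (1192 to 1947 TPM in emMidgut, 0 to 14.7 TPM in emHindgut, hindgut minus midgut -7.99 ± 0.6), then Afp (-6.85), the trefoil factor Tff3 (303 and 2.05 TPM, -6.85), the trypsin inhibitor Spink1 (456 and 7.98 TPM, -6.0), Serpina1a (174 and 2.51 TPM, -5.95) and Fam183b (-5.69). Serpina1a has near-identical copies among which reads may be shared. The largest hindgut excess was in Hoxd11 (5.26 ± 0.36), Cdx4 (5.23), Hoxc10 (4.96), Hoxaas3 (4.49), Wnt5b (13.4 and 262 TPM, 4.48) and D230030E09Rik (4.27).

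In 38 genes the regions moved in opposite directions, 25 of them lower in emMidgut and higher in emHindgut than Epi (0.173% of genes tested) and 13 the reverse (0.0902%). None of the 38 was called in the pooled comparison, which follows largely from the choice, since opposite changes cancel in a pooled mean. Among the 25 were Fgf8 with the FGF feedback genes Dusp6 and Etv4, T, Snai1, the Wnt genes Axin2, Lef1 and Sp5, and the Notch genes Notch1 and Dll3, picked here after their values were seen. Fgf8 was at 26.6, 143, 144 and 77.7 TPM in Epi, 30.7, 0, 0 and 0 TPM in emMidgut and 532, 319, 455 and 451 TPM in emHindgut, and the pooled difference of -1.36 ± 1.87 described neither region. Dusp6, a phosphatase induced by ERK signalling, was at 145, 35 and 448 TPM (hindgut minus midgut 3.95 ± 0.4, adjusted p = 2.1e-06). Axin2, a general Wnt target, was at 6.16, 1.33 and 14.4 TPM, and Notch1 at 5.09, 2.16 and 28.5 TPM. Of the 13 higher in midgut, Apoe, which carries lipids in lipoprotein particles, was at 135, 125, 84.7 and 70.5 TPM in Epi, 258, 306, 498 and 306 TPM in emMidgut and 27.4, 10.3, 10.0 and 12.5 TPM in emHindgut. Mesenchyme markers were also higher in emHindgut (34.2 to 62.5 TPM in sum) than in emMidgut (7.57 to 24.7 TPM). Surface ectoderm markers were too (18.5 to 23.9 and 9.96 to 13.3 TPM). The part of such cells, of presomitic mesoderm and of the dissection in these differences was not tested.

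**Figure D4:**
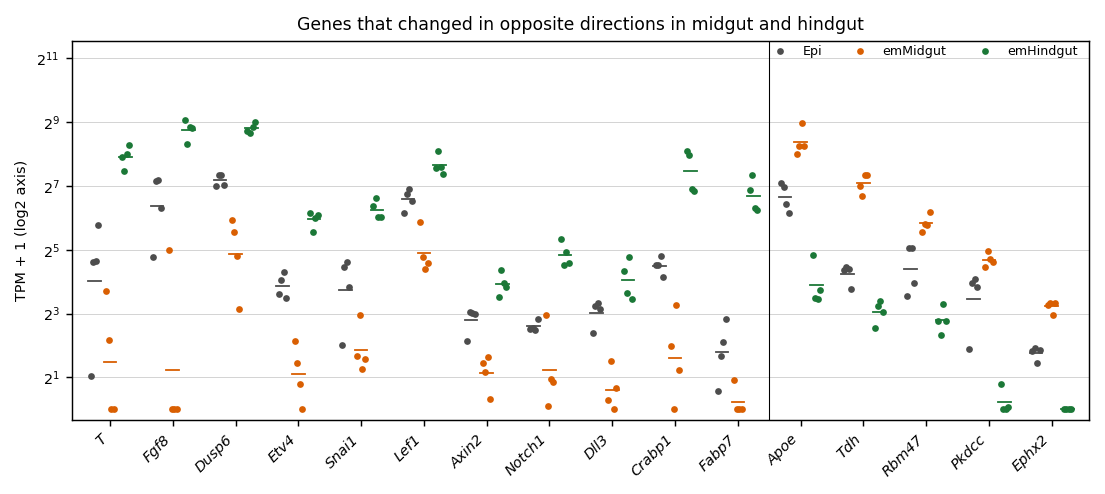
TPM + 1 on a log2 axis for 11 genes called lower in emMidgut and higher in emHindgut than Epi (left) and 5 genes called the other way (right). Dots are libraries and bars their mean on the log scale, for Epi (grey), emMidgut (orange) and emHindgut (green). The Epi means lie between those of the regions, as the choice of genes required.

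The extraembryonic route into the same gut starts from exEndo 1, the distal extraembryonic endoderm of E6.5, and ends in exGut, midgut and hindgut cells sorted as EPCAM+ mCherry+. The change from Epi to emGut minus that from exEndo 1 to exGut was tested for 16119 genes, and called positive for 2025 (12.6%) and negative for 1166 (7.23%). A positive value can come from a rise on the embryonic route or a fall on the other. Of the 4260 genes called in emGut against Epi, 1464 differed so. The route difference holds the same emGut minus Epi change, so this choice of genes by itself raises the count. Spink1 was at 11233 to 14782 TPM in exEndo 1 and 11.5 to 1746 TPM in exGut, against means of 0.0345 TPM in Epi and 232 TPM in emGut (difference of the changes 11.5 ± 1.96, adjusted p = 8.1e-05). Apoa1 (9.72), Apom (8.71), Dpp4 (7.7) and Rbp4 (7.67) followed, with Ttr, which is at 0 in Epi. In the other direction stood Fst (-6.02), Slc7a3 (-5.68), Pou5f1 (-5.3), Pim2 (-5.28) and Pmaip1 (-5.09), with Tdgf1 at 0.695 to 47.2 TPM in exEndo 1 and 0 in both gut groups. Pim2 was at 14.5 TPM in exEndo 1 and 15.3 TPM in exGut (exGut minus exEndo 1 -0.07 ± 0.37).

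By list, 17 of 21 serum and lipoprotein genes, 16 of 38 epithelial genes and 11 of 26 gut endoderm factors had a positive difference of the changes. Of 34 pluripotency genes 15 had a negative one and 1 a positive one. Of 41 Cdx and Hox genes 2 differed, Cdx2 and Cdx4, both positive, and the list's median difference of changes was 0.50. Cdx2 was at 8.22 to 28.4 TPM in exEndo 1 and 127 to 334 TPM in exGut, beside 0.196 to 0.548 TPM in Epi and 242 to 401 TPM in emGut (difference of the changes 4.41 ± 0.34, adjusted p = 6.1e-10). Krt8 was at 880.0 TPM in exEndo 1 and 1163 TPM in exGut, and the difference of the changes was 4.49 ± 0.5 (adjusted p = 2.3e-07). Dnmt3b was at 308 and 29.9 TPM, and its fall on the embryonic route was deeper, with a difference of the changes of -2.24 ± 0.47.

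**Figure D5:**
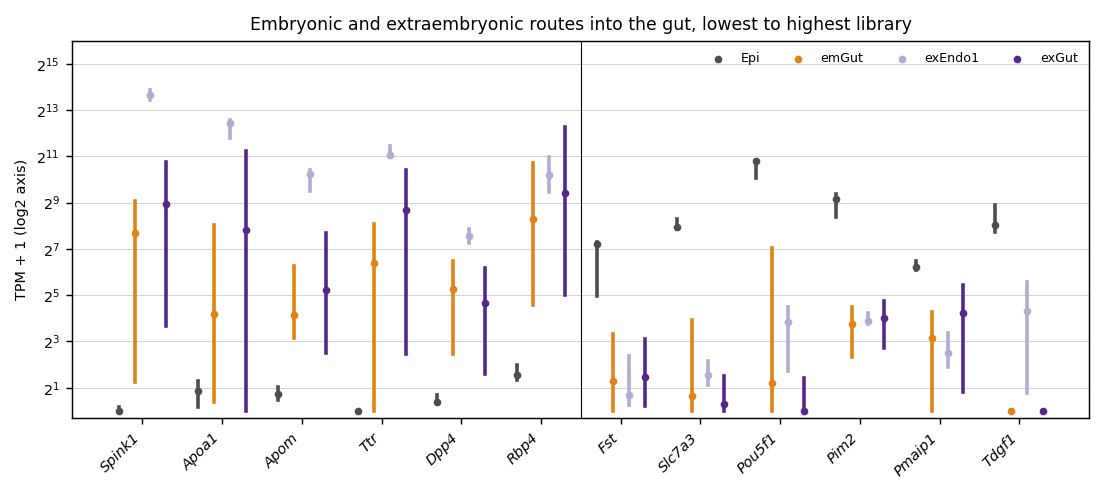
TPM + 1 on a log2 axis for the 6 genes with the most positive (left) and the 6 with the most negative (right) embryonic minus extraembryonic change. Dots are group medians and lines span the lowest to the highest library of Epi (n = 4), emGut (n = 8), exEndo 1 (exEndo1, n = 4) and exGut (n = 8). On the left exEndo 1 is high while Epi is low, and on the right every Epi library lies above those of the other groups.

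The later embryonic gut gives these levels a second view, as values with no test, since E13.5 libraries (emSI of the small intestine and emColon, n = 3 each) come from single embryos and another sort. Their labels give the genotype WT for these GFP+ cells, while the study's methods say that the extraembryonic cells of such embryos lacked p53. Cdx2 was still at 96.7 to 259.6 TPM in emSI and 180.3 to 261 TPM in emColon, and Shh at 58.2 to 110.1 and 34.7 to 92.2 TPM. Pou5f1 was at most 0.0746 TPM and Sox2 at 0 in all 6. T was at most 1.72 TPM, and Fgf8 and Cdx4 were listed at 0. Gata4 was at 29.9 to 68.2 TPM in emSI and 0 in emColon, and Hnf4a at 30.6 to 57.4 and 9.36 to 56.8 TPM. Dnmt3b was at 0.427 to 7.32 and 0.506 to 16.6 TPM, Lin28b at 0.0405 to 6.86 and 0 to 4.44 TPM, and Hmga2 at 164 to 189 and 174 to 259 TPM. H19, split at E9.5, was at 2.2 to 7.08 and 0 to 53.5 TPM beside Igf2 at 387 to 526 and 332 to 504 TPM.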

How the data were processed

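Poly(A) RNA libraries of the Smart-RRBS protocol were sequenced by the authors, trimmed with cutadapt 4.1, aligned with STAR 2.7.9a to mm10 with the reporter sequences, and quantified with StringTie 2.0.6, as the submitters' processing notes and the study's methods say. The deposited tables hold TPM, FPKM and coverage per gene. TPM and FPKM were made by the authors relative to library and length, and coverage is the authors' mean signal over a gene, used here only to estimate depth. TPM was summed per gene identifier, and genes above 1 TPM in at least 4 of the 12 libraries entered the test. Differences on log2(TPM + 1) were tested, two-sided, with limma 3.58.1 (eBayes with trend) in R 4.3.3, with Benjamini-Hochberg adjustment over all genes tested, and called at an adjusted p under 0.05 and a log2 difference above 1. The groups are those of the sample titles. The route test used 4 exEndo 1 and 8 exGut libraries beside the 12. Epi libraries are single embryos. The gut libraries are pools. In the pooled test the p-values measure the spread over all 8 gut libraries, which also holds the difference between midgut and hindgut. A gene that differs between the regions can therefore miss the pooled test although its replicates are close. With region means fitted instead, 3386 genes were called higher and 1240 lower in emGut. TPM adds to a fixed sum, so a few abundant genes move all others, and differences of low genes are understated by the pseudocount of 1.

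Named were the 12 genes a direction with the largest pooled differences and separate groups, up to 4 called members a list, a list of core genes, and 6 genes a direction by region and by route, at a mean of at least 10 TPM. Further list members were picked after their values were seen. Members and lists were chosen with earlier results of these data known. The test was tried on simulated data. Alternatives were the pseudocount (0.1), the filter, quantile and median-ratio scaling, FPKM, the variance model, protein-coding genes alone, all 44 libraries in 1 fit, region means, a replicate block and leaving out each replicate. Leaving out both emMidgut libraries with Dppa3 was added after seeing the data. Promoter windows were taken from RefSeq tables, with python 3.11.15 and pandas 2.3.3. Some genes named by the rule are not reported here.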

Additional observations from a re-analysis of the deposited data

Results flagged for a closer look

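In 20 of 195 groups of 4 libraries examined, 1 library lay beyond Dixon's critical value for 4 libraries, which chance passes for about 1 group in 20. In Epi, replicate 1 was the low one for Foxa2 (0.121 TPM), Fst (30.4 TPM) and Mixl1 (1.9 TPM) and stood apart for Kit (3.37 TPM) and Rhox5 (13.4 TPM), and replicate 4 was the low one for Cldn6 (91.2 TPM), Pou5f1 (1067 TPM) and Utf1 (145 TPM). In emMidgut, replicate 1 stood apart for Apoa1 (29.7 TPM), Cdx1 (1.75 TPM), Fgf8 (30.7 TPM), Nodal (4.54 TPM), Ttr (148 TPM) and mCherry (5.29 TPM), replicate 2 for Fst (1.82 TPM), replicate 3 for Trap1a (9.53 TPM) and replicate 4 for Foxa3 (34.1 TPM) and for the share of its 10 highest genes (6.319%). In emHindgut, replicate 4 stood apart for Dlk1 (21.1 TPM) and Dnmt3a (113 TPM).

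The change from Epi differed between the regions for 887 genes higher and 1259 lower in emHindgut than emMidgut, by the limma test of the regions. It ran in opposite directions for 25 genes lower in emMidgut and higher in emHindgut and for 13 genes the other way. Between the embryonic and the extraembryonic route it differed by the interaction test for 2025 genes with a positive and 1166 with a negative embryonic minus extraembryonic change.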

How the results depend on the processing

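Of 301 values of the comparisons under the alternatives, 292 kept their direction and side or, for counts, stayed within 1.5 times. Of 3494 values of 154 named genes 3333 kept direction and side, 110 lost a call, 31 gained one and 20 changed sign with no call. Quantile normalization moved the genes called lower to 2235 in emGut and 2808 in emMidgut, and those in emHindgut to 1956 higher and 1968 lower, and the cause was not tested. Switched genes numbered 22 on and 5 off at 1 and 20 TPM, 17 off at 0.5 and 5 TPM, and 19 off without the emMidgut libraries with Dppa3, which by construction leaves fewer libraries to pass. The difference in genes detected turned from 865 at 1 TPM to -2305.4 at 0.1 TPM. Leaving out single replicates gave 2738 to 3223 genes higher and 902 to 1249 lower in emGut, 3555 to 3714 and 1342 to 1657 in emMidgut, 2726 to 2994 and 827 to 1099 in emHindgut, 741 to 929 and 1128 to 1258 between the regions, 1725 to 2090 and 933 to 1220 between the routes, 49 to 55 switched on and 10 to 13 off, and 17 to 18 lists with more genes higher than lower. The lowest counts of lower genes without an Epi replicate follow in part from the filter, which asks for 4 libraries.

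Same-numbered libraries did not deviate together over all genes tested (correlations of -0.023 to 0.0326), and they were treated as unpaired, although H19 went by number in both regions. The study's methods pool corresponding tissues of 4 embryos for each replicate. Midgut and hindgut libraries of 1 number may therefore share embryos. With a block by replicate number 3009 genes were called higher and 1162 lower in emGut, at a consensus correlation of -0.13. This block cannot decide on pairing, since it also ties Epi libraries of other embryos to gut libraries of the same number. Among the named genes followed under the alternatives, Col1a2, Notch2, Notch3, Ptch1, Sox17, Tpi1 and Wnt5b lost their calls under median-ratio rescaling. Sox2, Apoa1, Fam183b, Sox17, Tff3 and Tpi1 lost theirs without emMidgut replicates 1 and 3.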
